A study of Oryza sativa with 26 samples.

Results

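The genes described are those of ethylene synthesis and ethylene reception in rice (Oryza sativa, a japonica cultivar named Zhonghua 11), measured in the lamina joint, where the blade bends away from the sheath. Of 7 genes looked for by symbol or synonym, 6 were matched to a probe set of the array, among 17905 genes matched in all. They are the ACC synthases ACS1 (gene 4333976) and ACS2 (LOC4336750), the ACC oxidase ACO1 (LOC4347225) and the receptors ETR2 (LOC4335058), ETR3 (LOC4331174) and ERS1 (LOC4333832). ACO3, another ACC oxidase, was not matched by name and is not analysed here. The matched genes were represented by 7 probe sets, and for ETR2, the only one with 2, the brighter was used.

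Greenhouse plants gave hand-cut joints from 3 leaf positions, called here the last, the second (1 leaf earlier) and the third (earlier still), profiled on 26 arrays in 13 groups of 2. Joints were young and pale at stage 2, mature but not yet bent (angle 0) at stage 4 and widening their angle at stage 5, while stage 6 joints were senescent, dry and misshapen. Harvest of the last joint at these stages fell on days 60, 65, 70 and 80 from sowing. Days 55, 60, 65 and 75 gave the second joint, and days 50, 55, 60 and 70 the third. At each stage the positions differed in harvest day, so leaf position and plant age cannot be told apart in comparisons at equal stages. A green piece of the third leaf, taken next to its joint at stage 4 and 55 days, was the control tissue. No group was treated or mutant. The arrays of a group are labelled biological replicates, but no label ties them to separate plants, so the spread behind each p-value is that between these arrays and may be technical. Levels are log2 expression values (1 unit is a 2-fold difference), and they are not compared between genes, since probe sets differ in brightness. A gene was called at a limma adjusted p under 0.05 over all 57258 probe sets and at least a 2-fold difference, and in the F-test by its adjusted p alone.

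Ethylene is a gaseous hormone made from S-adenosylmethionine. ACC synthase turns that compound into ACC, the direct precursor, and is commonly the limiting step, while ACC oxidase turns ACC into ethylene. The receptors sit in the endoplasmic reticulum membrane and, without ethylene, keep the pathway off. Ethylene binding releases EIN2, which acts through EIN3-like (EIL) transcription factors on ethylene response genes. In plants the hormone acts in growth, in leaf senescence and in the response to flooding.

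The joint label was checked with LG1, which is required to form the ligule and the joint. LG1 lay between 7.52 and 9.89 on the 24 joint arrays and at 6.03 and 5.84 on the leaf arrays. The mean of 6 light-harvesting and photosystem genes was 8.64 to 10.82 in joints and 11.98 and 11.60 in the leaf, so green tissue markers were not absent from the joints. The KNOX list (9 genes, chosen as meristem markers) averaged 7.25 to 7.98 in joints, against 6.84 and 6.80 in the leaf. Its brightest genes were HOS59, HOS58 and OSH45, at 12.31, 12.21 and 10.56 over all arrays. HOS66, OSH71 and OSH43 averaged 7.76, 7.30 and 6.26. OSH3, OSH6 and OSH1, at 4.79, 4.15 and 3.22, lay under the array medians, so the list mean is not a measure of meristem content. The panicle list (12 floral MADS genes) averaged 4.57 to 5.04 in joints, against 4.45 and 4.55 in the leaf, with array medians of 5.07 to 5.17. The part of these other tissues in the results was not tested. Some arrays stood apart. The second joint at stage 5 replicate 1 had an upper quartile of 7.50, against 7.90 to 8.07 on the others. The third joint at stage 6 replicate 1 had LG1 at 7.67, against 9.76 in its replicate. The 3′ minus 5′ difference of the Gapdh control, a measure of RNA quality, was 3.78 in the third joint at stage 4 replicate 2, 2.93 to 3.41 in the last joint at stage 5 and in all stage 6 joints, and 1.47 to 2.09 on all other arrays.

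**Figure D1:**
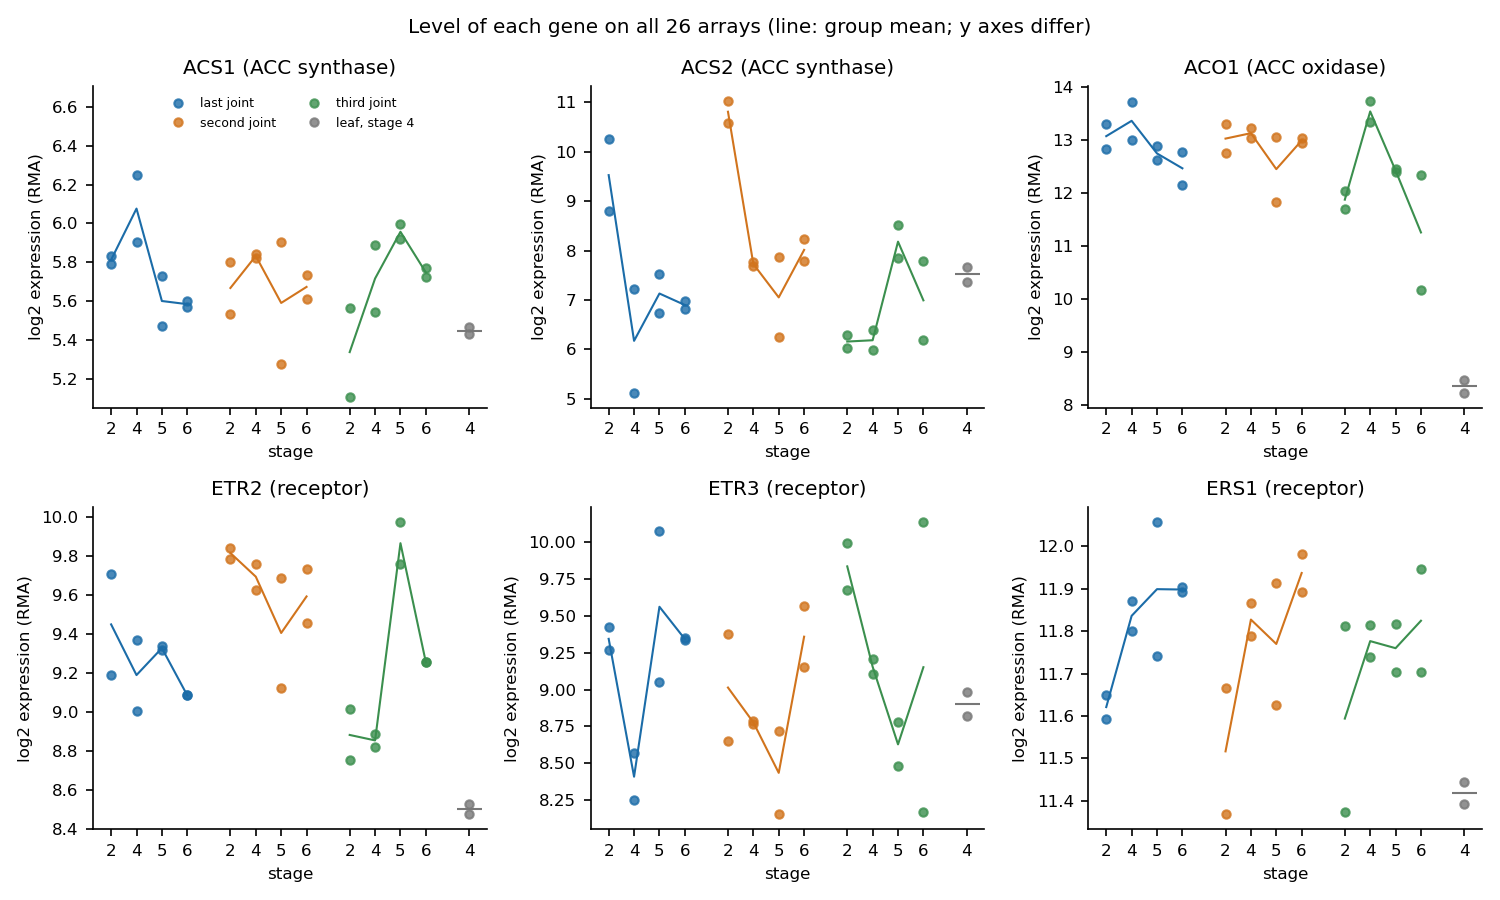
Log2 expression of the 6 genes on all 26 arrays, with stage on the x axis within each leaf position and the leaf at the right; points are arrays, lines join group means, and the y axes differ between panels. ACO1 lies above its leaf level in every joint array, ACS2 peaks in the last and second joints at stage 2, and ACS1 and ERS1 vary over less than 1 log2 unit of group means.

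ACS2 was the ACC synthase that changed with stage. In the last joint ACS2 read 10.26 and 8.80 at stage 2, 7.23 and 5.12 at stage 4, 7.53 and 6.73 at stage 5, and 6.99 and 6.81 at stage 6. In the second joint it read 11.04 and 10.59 at stage 2, 7.69 and 7.77 at stage 4, 6.24 and 7.86 at stage 5, and 8.24 and 7.79 at stage 6. The young last and second joints were thus higher than every later array of their own leaf position. The third joint did not show this: ACS2 read 6.03 and 6.29 at stage 2, 5.98 and 6.39 at stage 4, 8.52 and 7.85 at stage 5, and 7.79 and 6.20 at stage 6. Its stage 2 and stage 4 values lay in or just above the range of ACS1 (5.11 to 6.25). A level above background cannot be read there, so the size of differences from these groups is uncertain. The leaf piece read 7.67 and 7.37. In bulk tissue fewer cells of a type and less RNA per cell cannot be told apart.

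From stage 2 to stage 4, ACS2 fell by 3.35 in the last joint (SE 0.65, 10.2-fold, limma adjusted p = 0.00192; 9.08% of probe sets called) and by 3.08 in the second joint (SE 0.65, 8.46-fold, limma adjusted p = 0.00294; 10.9% called). In the third joint the difference was 0.03 (SE 0.65, limma adjusted p = 0.986). Averaged over the 3 joints, ACS2 was lower at stage 4 than at stage 2 by 2.14 on the log2 scale (difference -2.14, SE 0.37, limma adjusted p = 0.000252). ACS2 was the only one of the 6 genes called in that averaged step, in which 11.5% of all probe sets were called. By limma, 5 of the 6 genes had an unadjusted p under 0.05 in it. The share of all probe sets under that unadjusted limit was not counted. With treat, limma's stricter test of the fold limit, the call of the average was lost (adjusted p = 0.0729), as were those of the last joint (0.052) and the second joint (0.0783). With only its own 4 arrays in the fit, the last joint's call was also lost (adjusted p = 0.0725). Its difference moved to -2.30 without the stage 4 replicate 2 array and to -4.41 without the stage 4 replicate 1 array, both still called.

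The test of whether any stage step differed between leaf positions called ACS2 (limma F-test over 6 contrasts, adjusted p = 0.0154). It called 2 of the 6 genes, ACS2 and ETR2, and 5.48% of all probe sets. Leaving out replicate 1 or replicate 2 of the third joint at stage 2 ended the call of ACS2 (adjusted p = 0.0546 and 0.0506), as did leaving out replicate 1 at stage 5 of that joint (0.053). Of 54 single differences between joints in a stage step, tested after the data were seen, 2 were called, against shares of all probe sets from 0% to 3.83%: for the last against the third joint 3.83%, 0.538% and 0.122% over the 3 steps in order, for the second against the third 3.34%, 1.73% and 0.601%, and for the last against the second 0.423%, 1.25% and 0%. The step from stage 2 to stage 4 differed by -3.38 between the last and the third joint (SE 0.92, limma adjusted p = 0.0476; 3.83% of probe sets called). That single difference lost its call without each of 6 of its 8 arrays in turn, with the highest adjusted p at 0.19, and it had an adjusted p of 0.185 with the Gapdh difference as a covariate. The same step differed by -3.11 between the second and the third joint and was not called (SE 0.92, adjusted p = 0.078; 3.34% called).

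At stage 2 itself the leaf positions lay far apart for ACS2, in tests also added after the data were seen. The second joint averaged 10.81 ± 0.32 and the third joint 6.16 ± 0.18 (SD, n = 2 each), a difference of 4.65, or 25.1-fold, with no overlap (SE 0.65, limma adjusted p = 0.000211). Since the third joint lay in or just above the ACS1 range given above, the size of this difference is uncertain. This difference was 4.43 to 4.88 without any 1 of its 4 arrays and was called each time. The last joint averaged 9.53 ± 1.03, higher than the third by 3.37 (SE 0.65, limma adjusted p = 0.00314), and that call was lost without its replicate 1 (2.64, adjusted p = 0.0569). The last and second joints did not overlap at stage 2 but were not called apart. Stage 2 fell on day 60 in the last joint, day 55 in the second and day 50 in the third. Position and plant age thus cannot be told apart here. Other values also moved with the contrast of the third joint against the other joints at stage 2. The KNOX list averaged 7.78 and 7.98 in the last joint and 7.98 and 7.76 in the second, against 7.47 and 7.25 in the third. The Gapdh difference was 1.93 to 2.09 in the last and the second joint, against 1.47 on both arrays of the third. The part of either in the result was not tested. ACS2 was the only one of the 6 genes called between positions at stage 2, against 4.68% of all probe sets for the second against the third, 5.9% for the last against the third and 0.526% for the last against the second. ETR2 had an adjusted p of 0.00614 for the second against the third but a difference of 0.93, under 2-fold.

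Over all 4 stages, ACS2 was higher in the second than in the third joint by 1.52 (SE 0.32, limma adjusted p = 0.0255), the 1 call among the 6 genes, against 0.375% of all probe sets. It was lost without each of 6 of the 16 arrays in turn (highest adjusted p = 0.081, when replicate 1 of the second joint at stage 6 was left out), and treat ended it too. The remaining such arrays were the second joint at stage 2 replicate 1, the second joint at stage 4 replicates 1 and 2, the third joint at stage 5 replicate 2 and the third joint at stage 6 replicate 2. The average over stages includes the stage 2 difference of 4.65 given above. At stages 4, 5 and 6 ACS2 averaged 7.73, 7.05 and 8.01 in the second joint, against 6.19, 8.18 and 6.99 in the third. The direction thus turned at stage 5, and none of these later differences was called. No gene was called by limma for the last against the third joint (1 of 6 at an unadjusted p under 0.05; 1.14% of probe sets called) or for the last against the second (2 of 6 at an unadjusted p under 0.05; 0.189% called).

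**Figure D2:**
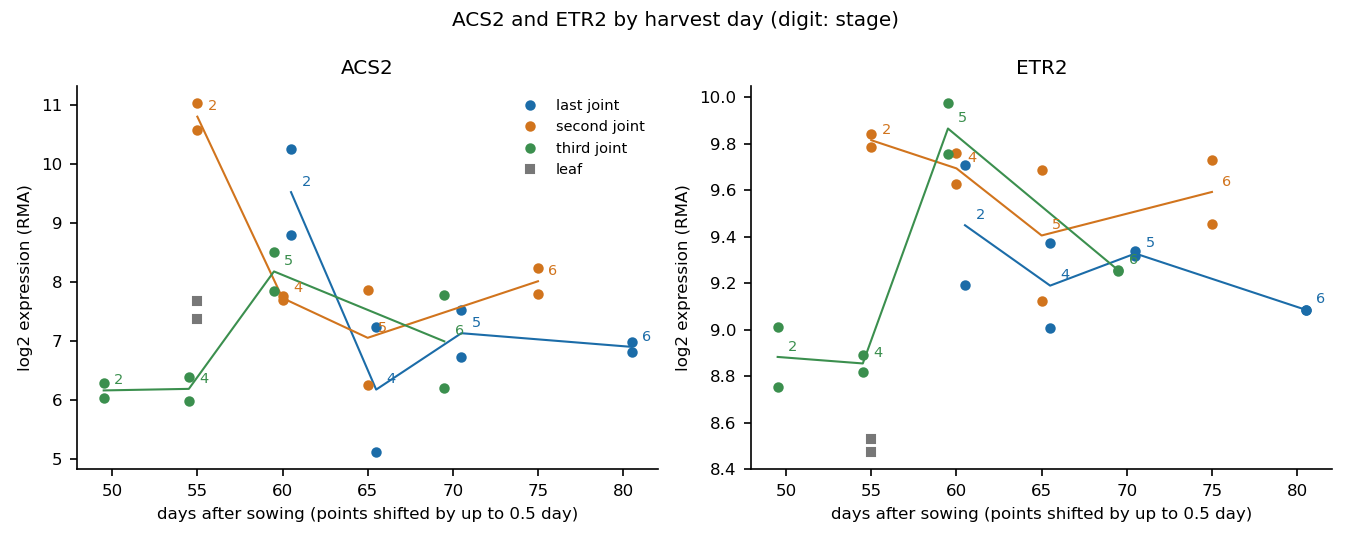
Log2 expression of ACS2 and ETR2 by harvest day, with points for arrays, lines for group means and digits for the stage; points of the joints are shifted by up to 0.5 day. At 60 days the last joint was at stage 2, the second at stage 4 and the third at stage 5, and ACS2 averaged 9.53, 7.73 and 8.18 in them.

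Joints harvested on the same day were at different stages, and ACS2 followed neither day nor stage alone. At 55 days it averaged 10.81 in the second joint at stage 2 and 6.19 in the third joint at stage 4. At 65 days it averaged 6.17 in the last joint at stage 4 and 7.05 in the second joint at stage 5. At 70 days it averaged 7.13 in the last joint at stage 5 and 6.99 in the third joint at stage 6. The arrays overlapped at 65 and at 70 days. In the order of the 13 group means, the second joint at stage 2 stood first and the last joint at stage 2 next, neither overlapping the group below it. Of the 12 neighbouring pairs in this order, 7 overlapped.

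ACS1, the other ACC synthase, varied little. Its group means lay between 5.34 (the third joint at stage 2) and 6.08 (the last joint at stage 4), with the leaf at 5.45 ± 0.02 (SD, n = 2). The arrays ran from 5.11 to 6.25, close to the array medians, and whether it lies above background cannot be read from these values. ACS2 arrays at 5.12, 5.98, 6.03, 6.20 and 6.24 fell in the same range. Of the 12 neighbouring pairs of groups, 9 overlapped. ACS1 was not called in any comparison tested here. Its difference was 0.27 between the third joint and the leaf at stage 4 (SE 0.20, limma adjusted p = 0.533) and 0.27 between stage 4 and stage 2 (SE 0.11, limma adjusted p = 0.0949).

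ACO1, the ACC oxidase, separated joint from leaf. It read 13.74 and 13.33 in the third joint at stage 4, against 8.23 and 8.48 in the leaf beside it. The difference was 5.17, or 36.1-fold (SE 0.50, limma adjusted p = 4.45e-06). It was the only one of the 6 genes called in this comparison, in which 7.41% of all probe sets were called. The difference was 4.97 to 5.38 without any 1 of the 4 arrays and 5.23 with the Gapdh covariate (adjusted p = 0.000141), and with only the 4 arrays in the fit the adjusted p was 0.00402. In the same comparison ACS2 was at -1.34 (SE 0.65), ERS1 at 0.36 (SE 0.16), ETR2 at 0.35 (SE 0.19) and ETR3 at 0.25 (SE 0.45), with limma adjusted p from 0.215 to 0.847. The median of the 6 differences was 0.31, and -0.00280 over all probe sets.

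Every joint array lay above both leaf arrays for ACO1. In the last joint it read 13.30 and 12.83 at stage 2, 12.99 and 13.72 at stage 4, 12.87 and 12.61 at stage 5, and 12.15 and 12.78 at stage 6. In the second joint it read 13.30 and 12.74, 13.03 and 13.22, 11.84 and 13.06, and 13.04 and 12.94 at the same stages. In the third joint it read 11.71 and 12.04 at stage 2, 13.74 and 13.33 at stage 4, 12.40 and 12.44 at stage 5, and 10.17 and 12.34 at stage 6. The means of all 3 joints at stage 4 headed the order of groups, with the third joint at stage 6 and then the leaf at its end. Of the 12 neighbouring pairs, 9 overlapped, and the leaf overlapped no joint group.

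In the third joint ACO1 was higher at stage 4 than at stage 2 by 1.66 (SE 0.50, limma adjusted p = 0.0246), the only call of the 6 genes in that step, against 14.5% of all probe sets. This call was lost without each of the 4 arrays in turn (adjusted p of 0.0589 up to 0.127), and a Gapdh covariate ended it too (0.171). The same step was 0.29 in the last joint and 0.10 in the second, neither called. Whether the steps of ACO1 differed between joints was not called (limma F-test, adjusted p = 0.373), and it was called without the third joint at stage 6 replicate 2 (0.0212). Averaged over joints, ACO1 differed by 0.68 between stage 4 and stage 2 (limma adjusted p = 0.0938) and by -0.80 between stage 5 and stage 4 (adjusted p = 0.301).

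**Figure D3:**
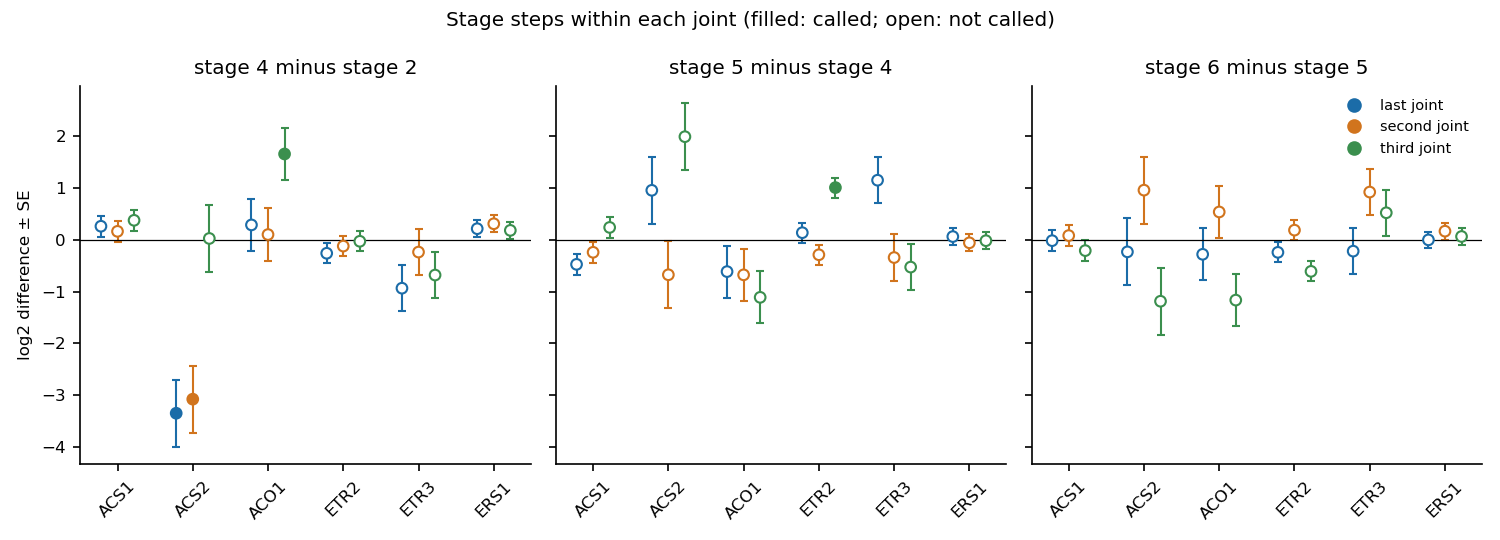
Log2 difference of each stage step within each of the 3 joints for the 6 genes, with the later stage minus the earlier; bars are standard errors of the fit and filled points are called. The filled points are ACS2 in the last and second joints and ACO1 in the third joint at the first step, and ETR2 in the third joint at the second step.

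Among the receptors, ETR2 had a called step. ETR2 and ETR3 belong to the rice receptor subfamily that lacks some of the conserved histidine kinase residues, and ERS1 to the subfamily that keeps them. In the third joint ETR2 read 8.75 and 9.01 at stage 2, 8.89 and 8.82 at stage 4, 9.97 and 9.76 at stage 5, and 9.25 and 9.26 at stage 6. The stage 5 arrays were higher than the 6 others. From stage 4 to stage 5 it rose by 1.01 in the third joint (SE 0.19, 2.01-fold, limma adjusted p = 0.0202), at the edge of the fold limit. It was the 1 call among 18 values of that step in the 3 joints, against 0.791% of probe sets called in the last joint, 1.29% in the second and 0.754% in the third. Without the third joint at stage 4 replicate 2 it was 0.98 (adjusted p = 0.117), without stage 5 replicate 1 it was 0.90 (0.249), and without stage 5 replicate 2 it was 1.12 (0.0815). The call was also lost with only those 4 arrays (adjusted p = 0.0837) and with the Gapdh covariate (0.95, adjusted p = 0.137). The dimmer ETR2 probe set, which stayed between 2.83 and 3.49 on all arrays, was at -0.13 in this step.

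In the last joint ETR2 read 9.71 and 9.19 at stage 2, 9.37 and 9.01 at stage 4, 9.32 and 9.34 at stage 5, and 9.08 and 9.09 at stage 6. In the second joint it read 9.84 and 9.79, 9.76 and 9.63, 9.12 and 9.68, and 9.73 and 9.45 at the same stages. The leaf arrays, at 8.47 and 8.53, were lower than every joint array. The F-test called its steps different between joints (limma adjusted p = 0.0345), a call lost without each of 12 of the 24 joint arrays in turn (highest adjusted p = 0.142, when replicate 1 of the third joint at stage 5 was the one left out). The other single difference called, also tested after the data were seen, was the step from stage 4 to stage 5, which differed by -1.30 between the second and the third joint (SE 0.27, limma adjusted p = 0.0224; 1.73% of probe sets called). Leaving out replicate 1 of the second joint at stage 5, whose upper quartile was low, made it -1.02 (adjusted p = 0.101), and the call was lost without each of 6 of the 8 arrays in turn. Over the 4 stages ETR2 was higher in the second than in the third joint by 0.41 (SE 0.10, limma adjusted p = 0.0392), under the fold limit. Of the 12 neighbouring pairs of groups, 8 overlapped.

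ETR3 had no called difference, although its arrays at stage 4 lay below those at stage 2 in the last and the third joint. In the last joint it read 9.27 and 9.42 at stage 2, 8.25 and 8.57 at stage 4, 9.05 and 10.07 at stage 5, and 9.34 and 9.35 at stage 6. In the second joint it read 8.65 and 9.38, 8.79 and 8.77, 8.15 and 8.72, and 9.15 and 9.57, and in the third joint 9.68 and 9.996, 9.21 and 9.10, 8.48 and 8.78, and 8.17 and 10.14. The leaf arrays, at 8.82 and 8.98, fell inside the range of the joints. Between stage 4 and stage 2 its mean difference was -0.62 (SE 0.26, limma adjusted p = 0.0872), with lower group means at stage 4 in all 3 joints. Without the third joint at stage 6 replicate 1, its step from stage 5 to stage 6 in the third joint was 1.51 and was called (adjusted p = 0.0494), in place of 0.52. Of the 12 neighbouring pairs of groups, 10 overlapped.

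ERS1 had a narrow range, with arrays between 11.37 and 12.06 and group means between 11.42 in the leaf and 11.94 in the second joint at stage 6. Every joint group mean was above that of the leaf, but the arrays overlapped, since replicate 1 of the second joint and replicate 2 of the third joint, both at stage 2, read 11.37, against 11.39 and 11.44 in the leaf. Between stage 4 and stage 2 ERS1 differed by 0.24 (SE 0.09, limma adjusted p = 0.07), with the higher group mean at stage 4 in all 3 joints. It was not called in any comparison tested here, and its F-test between joints had an adjusted p of 0.989. Of the 12 neighbouring pairs of groups, 10 overlapped.

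From stage 4 to stage 5, averaged over joints, limma called none of the 6 genes (2 at an unadjusted p under 0.05), against 0.695% of all probe sets. From stage 5 to stage 6 it called none either (0 at an unadjusted p under 0.05), against 1.74%. Within single joints the later step gave 0 calls in 18 values by limma (2 at an unadjusted p under 0.05), against 0.14% of probe sets in the last joint, 3.93% in the second and 1.03% in the third. In the averaged step from stage 5 to stage 6, ACO1 was at -0.30 (SE 0.29), ACS2 at -0.15 (SE 0.37), ETR2 at -0.22 (SE 0.11) and ETR3 at 0.41 (SE 0.26). All stage 6 arrays had the high Gapdh difference given above, as did both last joint arrays at stage 5. Position differences at stages 4, 5 and 6, also added after the data were seen, gave 0 calls in 54 values by limma (10 at an unadjusted p under 0.05), against 0.421%, 0.405% and 0.236% of probe sets at stage 4 (the last against the third, the last against the second, the second against the third), 0.961%, 0.756% and 0.423% at stage 5, and 0.311%, 0.0105% and 0.014% at stage 6.

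A wider list of ethylene genes was matched by symbol, leaving 20 genes beside the 6. Many symbols looked for were not matched, among them other ACC synthases and ACC oxidases, ETR1, the CTR genes, EBF1 and EBF2. The list is thus not a survey of the whole pathway. The 20 matched genes are 2 S-adenosylmethionine synthetases, 3 genes of the methionine salvage (Yang) cycle, 2 further receptors, 3 signalling genes and 10 genes of the ERF family, 8 of them DREB genes, better known for cold and drought responses than for ethylene. The largest change among the 20 was in signalling. EIL1B, listed as an EIN3-like transcription factor, averaged 5.85 ± 0.08 at stage 2 in the last joint, 8.64 ± 0.67 at stage 4, 10.13 ± 0.14 at stage 5 and 10.04 ± 0.20 at stage 6 (SD, n = 2 each). In the second joint it averaged 4.35, 8.38, 10.01 and 9.83, and in the third joint 3.71, 8.19, 9.80 and 10.13. It rose by 3.76 from stage 2 to stage 4 (SE 0.20, limma adjusted p = 3.57e-10) and by 1.58 from stage 4 to stage 5 (SE 0.20, limma adjusted p = 0.000649), and with treat the second of these calls was lost (adjusted p = 1). Its stage 2 means in the second and the third joint lay under the array medians, where a level above background cannot be read from these values, so the first difference is one of array signal and its size is uncertain. EIL1A (also listed as MHZ6), its neighbour in the RefSeq table, had group means of 12.75 to 13.68 and was not called in these steps. Whether the probe sets of the pair also read each other's transcripts was not tested.

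**Figure D4:**
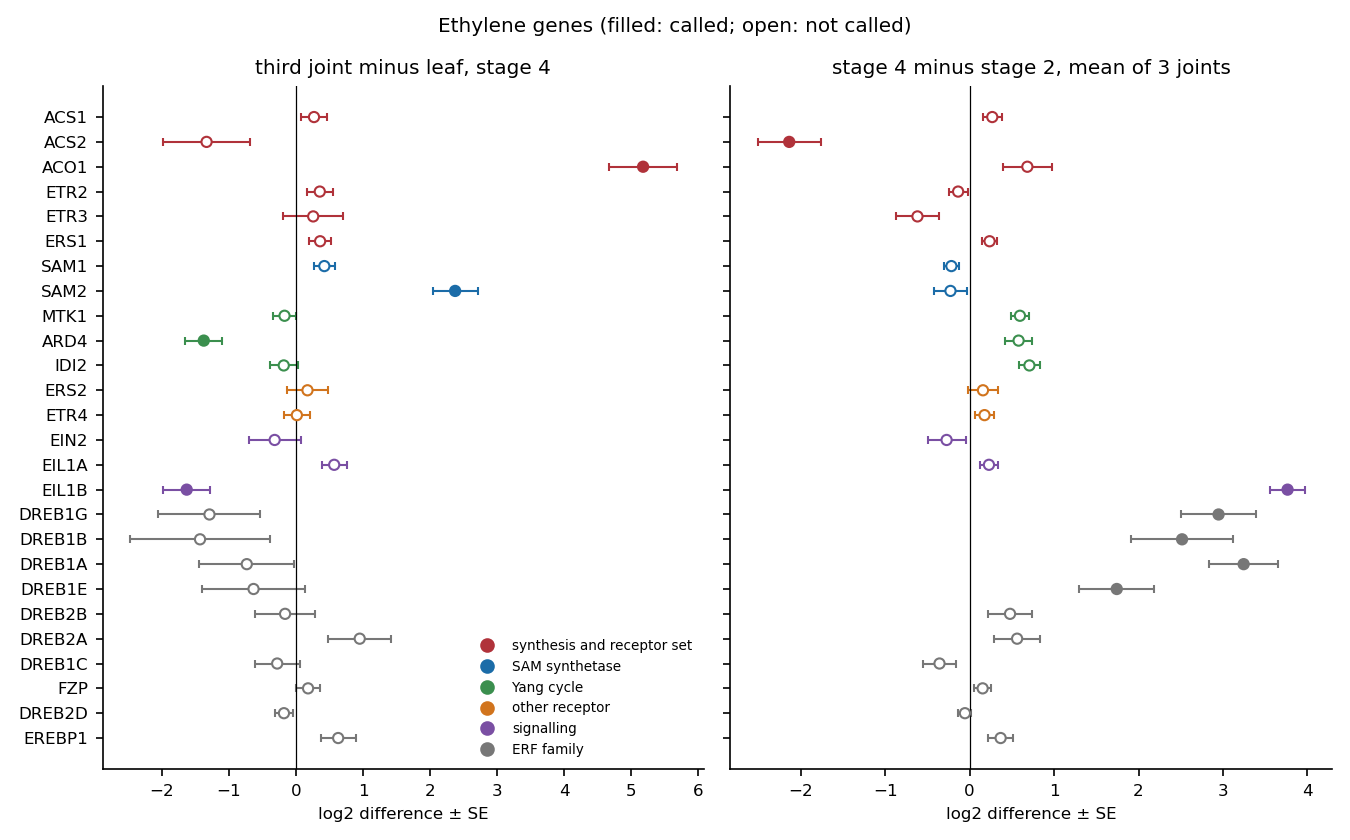
Log2 differences of the 6 genes and the 20 genes of the wider list, the third joint minus the leaf at stage 4 (left) and stage 4 minus stage 2 averaged over joints (right); bars are standard errors, filled points are called and colours give the role. ACO1 at 5.17 and SAM2 at 2.37 are the called points right of 0 on the left, and EIL1B at 3.76 stands with 4 DREB1 genes on the right.

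In the third joint against the leaf, 1 of these 20 genes was called higher and 2 lower, with a median of -0.18, where 3.42% of all probe sets were called higher and 3.99% lower. SAM2, an S-adenosylmethionine synthetase supplying the substrate of ACC synthase, averaged 12.98 ± 0.77 in the joint and 10.61 ± 0.47 in the leaf (SD, n = 2 each), a difference of 2.37 (SE 0.33, limma adjusted p = 0.000161). With only those 4 arrays its adjusted p was 0.0566. EIL1B was lower in the joint by 1.63 on the log2 scale (difference -1.63, SE 0.35, limma adjusted p = 0.00522), and not called without leaf replicate 1 (-1.44, adjusted p = 0.0642) or with the Gapdh covariate (adjusted p = 0.0524). ARD4, a dioxygenase of the Yang cycle, differed by -1.38 (SE 0.28, limma adjusted p = 0.00344), and by -0.77 without leaf replicate 1 (adjusted p = 0.0612, not called). With treat both lower calls were lost (adjusted p = 1 each), and with only those 4 arrays ARD4 was not called (0.176).

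From stage 2 to stage 4, 5 of the 20 rose and 0 fell, with a median of 0.42, against 0.000221 over all probe sets, of which 5.67% were called higher and 5.8% lower. Beside EIL1B they were DREB1A at 3.24 (SE 0.41, limma adjusted p = 8.57e-06), DREB1G at 2.95 (SE 0.44), DREB1B at 2.52 (SE 0.60) and DREB1E at 1.74 (SE 0.44), the last pair named after their values were seen. With treat, DREB1B (adjusted p = 0.194) and DREB1E (0.753) lost the call. All 3 Yang cycle genes passed the adjusted p and missed only the fold limit, with IDI2 at 0.71 (SE 0.12, limma adjusted p = 0.000195), MTK1 at 0.60 (SE 0.10, 0.000224) and ARD4 at 0.58 (SE 0.16, 0.0106). The share of all probe sets passing the adjusted p alone in this step was not counted. Whether these 3 stand out from it therefore cannot be said. The SAM synthetases (-0.22 and -0.23) and the further receptors ERS2 (0.16) and ETR4 (0.18) passed neither limit. From stage 4 to stage 5, EIL1B alone was called, 1 of 20 beside 0.695% of all probe sets. From stage 5 to stage 6, DREB1E alone was called, 1 of 20 beside 1.74%, at -1.70 (SE 0.44, limma adjusted p = 0.0331), and it was lost without each of 10 of the 12 arrays in turn (adjusted p up to 0.125). Across leaf positions averaged over stages, limma called 0 of the 20 for the last against the third (7 at an unadjusted p under 0.05; 1.14% of all probe sets called), for the last against the second (4 at an unadjusted p under 0.05; 0.189%) and for the second against the third (3 at an unadjusted p under 0.05; 0.375%). DREB1B missed the call in the last against the third joint (-1.78, SE 0.52, adjusted p = 0.0599) and was called lower without each of 4 arrays in turn, the last joint at stage 4 replicate 1, the third joint at stage 2 replicate 2, the third joint at stage 4 replicate 1 and the third joint at stage 6 replicate 2 (-2.01 to -2.11), with the Gapdh covariate (-1.99) and with dim probe sets left out. DREB1G missed it from stage 5 to stage 6 (-1.53, SE 0.44, adjusted p = 0.0528) and passed it once either replicate 2 of the second joint at stage 5 (-1.67) or replicate 1 of the third joint at stage 6 (-1.93) was left out, and under other settings such as a further quantile normalisation (-1.58). EREBP1, at 0.63 in the joint against the leaf, was called without leaf replicate 2 (1.02, adjusted p = 0.037).

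The F-test of stage steps between joints called 1 of the 20, MTK1, a methylthioribose kinase of the Yang cycle (limma adjusted p = 0.0159). MTK1 averaged 11.11, 11.55, 12.12 and 11.48 over the 4 stages in the last joint, 11.33, 11.67, 12.04 and 11.74 in the second, and 10.67, 11.69, 11.94 and 12.48 in the third. The third joint thus had its highest mean at stage 6 and the other joints at stage 5. Without replicate 1 of the third joint at stage 6 the call was lost (adjusted p = 0.0737), and without any 1 of the other joint arrays it was kept.

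Named genes most like each gene were found by Pearson correlation over the 13 group means, among 1740 genes with a descriptive name whose group means spanned at least 1 log2 unit. The groups share probe chemistry and normalisation, and these are descriptions. For ACO1 they were ERG3 (r = 0.967), the lipoxygenase LOX5 (r = 0.952) and the cellulose synthase-like CSLC1 (r = 0.933). Over the 12 joint groups alone these were 0.865, 0.752 and 0.624, so part of the likeness rests on the leaf. For the genes named next, r over the joint groups alone was 0.774 to 0.881. For ACS2 they were the lipoxygenase LOX3 (r = 0.87), PHT3 (r = 0.867) and the NAC transcription factor NAC068 (r = 0.861). For ETR2 they were a gene listed only as bHLH (LOC4343984, r = 0.906), BZR2 (r = 0.86) and the formin FH13 (r = 0.843). For ETR3 they were the transcription factor GLK2 (r = 0.869), the Tubby-like TLP14 (r = 0.864) and the gibberellin 20-oxidase listed as C20ox2, the semidwarf gene SD1 (r = 0.798). Among the genes themselves, the highest correlation over the 12 joint groups was between ACS2 and ETR2 (r = 0.76), and the lowest between ACS1 and ETR3 (r = -0.70).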

How the data were processed

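Biotin-labelled product of amplified total RNA was read on Affymetrix rice arrays of 1 colour, as the labels describe. What the authors deposited is 1 log2 level per probe set and array, made with RMA, per the submitters' processing notes, whose settings and version were not given in the sources used here. They run from 2.27 to 14.8. The number of arrays limits the precision.

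Genes were named through the platform annotation and the RefSeq table of assembly ASM3414082v1. The brightest probe set stood for a gene. Loci whose names fitted several genes (SK1, SK2, ARD1, ARD2) were left out of the wider list. The 6 genes, the wider list and the naming rule (all 6 genes, called genes of the wider list with at most 2 ERF rises and falls, and the 3 most correlated genes) were chosen with earlier results of these data known.

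All 26 arrays entered 1 limma 3.58.1 fit (R 4.3.3) with a mean per group, no block and 13 residual degrees of freedom; 123 control probe sets were left out. P-values are two-sided and Benjamini-Hochberg adjusted over 57258 probe sets. The fit was tested on simulated data with independent noise and no arrays that stood apart. That test thus does not bear on the dependence on single arrays. Alternatives were a further quantile normalisation, a filter on probe sets with every group mean under 5, the replicate number as a block, a Gapdh covariate, treat, fits of the compared groups alone, other ETR2 probe sets and each array left out.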

Additional observations from a re-analysis of the deposited data

Results flagged for a closer look

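Of the 6 genes, 2 had stage steps that differed between leaf positions in the F-test over 6 interaction contrasts, against 5.48% of all probe sets. Both calls depended on single arrays, as given above. ACS2 had a limma adjusted p of 0.0154: its step from stage 2 to stage 4 was -3.35 in the last joint and -3.08 in the second, against 0.03 in the third, while its step from stage 4 to stage 5 was 0.96, -0.68 and 1.99 in the last, the second and the third joints. ETR2 had a limma adjusted p of 0.0345: its step from stage 4 to stage 5 was 0.14, -0.29 and 1.01 in the last, the second and the third joints. The second joint at stage 5 replicate 1, with its low upper quartile, enters both; without it the F-test of ETR2 had an adjusted p of 0.0502. In the wider ethylene list, MTK1 was called in the same test (limma adjusted p = 0.0159), with group means of 11.94 at stage 5 and 12.48 at stage 6 in the third joint, against 12.12 and 11.48 at these stages in the last joint and 12.04 and 11.74 in the second.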

How the results depend on the processing

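Of the 6 genes, 1 was called in the third joint against the leaf under all 7 alternatives and each array left out. The counts of 0 from stage 4 to 5, from stage 5 to 6, the last against the third and the last against the second joint stayed at 0 throughout. With treat, the call from stage 2 to 4 and that of the second against the third joint went to 0, and the 4 calls within joints to 0. The 4 calls within joints were 2 with the Gapdh covariate and 2 with only the compared arrays. The 2 genes whose steps differed between joints were 1 with the Gapdh covariate and 1 without the 3 arrays that stand apart, an alternative chosen after seeing the data. Leaving out each array gave 0 to 1 calls for the second against the third joint, 2 to 5 within joints and 0 to 4 for steps that differ. The cause was not tested. The sole called value to reverse was ETR2 from stage 4 to 5 in the third joint with its dimmer probe set (-0.13). Sign changes of uncalled values were not counted as reversals. For instance, ETR3 from stage 5 to 6 in the third joint was 0.52, and -0.46 without its stage 6 replicate 2.

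Of 3202 values of the 6 genes under alternatives, 3123 kept their side of the threshold, 64 lost a call, 14 gained one and 1 reversed. An uncalled value that stayed uncalled counted as kept, even where its sign changed. These counts thus do not measure how stable the calls were. The replicate number as a block changed no call of the 6 genes: 1 was called against the leaf, and 2 had steps that differ. Among 78 pairs of groups the differences between replicates 1 and 2 correlated from -0.31 to 0.55, with a median of 0.04 and over 0.1 in 24. Whether the replicate numbers mark a shared batch in some groups cannot be read from these values. Over all probe sets, treat called 761 of the 4243 for joint against leaf, 2867 of 6564 (stage 2 to 4), 14 of 398 (4 to 5), 23 of 994 (5 to 6), 6 of 653 (the last against the third), 0 of 108 and 0 of 215 for the other pairs. The Gapdh covariate gave 357 from stage 5 to 6. Only the compared arrays gave 2118 against the leaf and 106 for the second against the third. Single arrays moved last against second to between 62 and 226, the second against the third to 115 to 395, stage 4 to 5 to 243 to 720, stage 5 to 6 to 652 to 1627 and the F-test, at 3139, to 1965 to 8232.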

Other observations

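The arrays of the third joint at stage 6 lay further apart than those of most groups for several of the genes. ACO1 read 10.17 in replicate 1 and 12.34 in replicate 2, ETR3 read 8.17 and 10.14, and ACS2 read 7.79 and 6.20, while ETR2 read 9.25 and 9.26. LG1 read 7.67 and 9.76 and the mean of the 6 light-harvesting and photosystem genes 10.04 and 9.43, with the leaf at 6.03 and 5.84 for LG1 and 11.98 and 11.60 for the light-harvesting mean. The light-harvesting mean of 10.04 lay within the range of the other joint arrays, under the 10.82 and 10.75 of the last joint at stage 2. Its 2 arrays also lay further apart in the second joint at stage 4, at 9.73 and 8.81, and in the third joint at stage 5, at 9.91 and 8.87. Whether replicate 1 of the third joint at stage 6 held other tissue was not tested. Without its replicate 2, ACO1 in the third joint differed by -2.25 between stage 6 and stage 5 and was called (limma adjusted p = 0.0371); without its replicate 1 the difference was -0.08.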
